A study of Homo sapiens with 6 samples.

Results

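The CTCF peaks of IMR90 cells treated with inflachromene (ICM) were compared with those of control cells, peak by peak. Members were all peaks on chromosomes 1 to 22 and X of the 2 deposited CTCF lists, 6728 from ICM-treated and 4673 from control cells. These 11401 peaks are part of 65597 such peaks in the 6 lists of the series. A peak was matched when it overlapped a peak of the other list by 1 bp or more, and the remaining peaks are called ICM-only or control-only.

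IMR90 is a line of human lung fibroblasts that is passaged until it stops dividing. The series profiled CTCF and the cohesin subunit SMC1 by CUT&Tag, in which an antibody tethers a transposase to chromatin so that DNA around the bound protein is cut, tagged and sequenced. Each antibody was used on control, ICM-treated and high-passage senescent cells, with 1 library each. The CTCF control had the p number 21 in its title, which names it a control without stating a vehicle, and the ICM-treated cells had the p number 16 and 6 days of ICM. A CTCF library of p number 34 (senescent) and SMC1 libraries of control (p 16), ICM-treated (p 16) and senescent (p 34) cells were used as further lists. ICM binds the proteins HMGB1 and HMGB2. Since the CTCF control and the ICM-treated cells differ in p number as well as in treatment, and each is 1 library, the effects of these cannot be told apart, and differences are described here and not tested. Peak lists hold no expression, so the fibroblast label was not checked against marker genes.

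CTCF is a zinc-finger protein that recognises a long DNA motif and marks boundaries in the folded genome. The ring-shaped cohesin complex extrudes chromatin loops and is held where it meets bound CTCF, so many CTCF sites also carry the cohesin subunit SMC1. Many CTCF sites are shared between cell types, and CTCF is also found at a good part of promoters.

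Promoter sequences at the peaks were searched for the CTCF motif. The study's methods describe a filter for CTCF peaks with that motif, and how far it was applied to the deposited lists is unknown. An excess of the motif at peaks may be set by that filter, so it is no check of the antibody. RefSeq promoter windows of GRCh38.p14, from 250 bases before to 50 after the start of a gene, were searched on both strands for the 12-base core of the CTCF motif with at most 1 mismatch. Of all 27195 windows, 4.97% held it (95% interval 4.71 to 5.23). It was present in 27.7% (24.6 to 31.0) of the 794 windows that held the summit of a matched ICM peak. Of the 404 windows with the summit of an ICM-only peak, 15.1% (11.8 to 18.97) held the core, fewer than at matched peaks and more than in all windows. Control-only peaks had their summit in 29 windows, of which 7 held it (24.1%, 10.3 to 43.5), too few to place them between the other classes. The median distance from core to summit was 47 bp at matched, 53 bp at ICM-only and 30 bp at control-only peaks. Core and summit lay in the same window by construction, and no baseline was computed for these distances. The median G+C content was 66.7% in windows of ICM-only peaks, 67.3% at matched peaks and 58.3% in all windows. Windows of neighbouring genes can share a peak, and the 404 windows belong to 350 ICM-only peaks.

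The promoters below are those of the highest-ranked peaks of each class that hold the core upstream of the start. They were picked for holding the core, which most windows with a summit did not, and show what the match looks like in each class. Each is printed as the 250 bases before the RefSeq start, on the strand of the gene, with the core in capitals.
GLIPR1L1, ICM-only peak, chr12:75334420-75334669, plus strand: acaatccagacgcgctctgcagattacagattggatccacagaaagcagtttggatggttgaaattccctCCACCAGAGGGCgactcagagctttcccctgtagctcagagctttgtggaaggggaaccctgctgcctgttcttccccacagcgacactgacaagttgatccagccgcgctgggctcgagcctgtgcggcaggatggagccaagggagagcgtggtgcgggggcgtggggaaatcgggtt
ZC3H7A, ICM-only peak, chr16:11797259-11797508, minus strand: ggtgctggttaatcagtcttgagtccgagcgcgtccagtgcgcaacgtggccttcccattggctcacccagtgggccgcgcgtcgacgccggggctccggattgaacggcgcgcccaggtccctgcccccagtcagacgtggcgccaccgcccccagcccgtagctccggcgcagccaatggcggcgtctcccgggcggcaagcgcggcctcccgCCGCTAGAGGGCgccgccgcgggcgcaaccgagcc
SLC25A44, ICM-only peak, chr1:156193854-156194103, plus strand: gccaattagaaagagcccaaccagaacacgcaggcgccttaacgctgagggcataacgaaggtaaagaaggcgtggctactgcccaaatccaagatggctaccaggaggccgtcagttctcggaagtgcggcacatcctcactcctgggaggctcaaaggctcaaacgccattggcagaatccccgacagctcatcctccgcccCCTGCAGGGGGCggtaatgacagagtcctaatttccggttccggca
TOMM6, matched peak, chr6:41787444-41787693, plus strand: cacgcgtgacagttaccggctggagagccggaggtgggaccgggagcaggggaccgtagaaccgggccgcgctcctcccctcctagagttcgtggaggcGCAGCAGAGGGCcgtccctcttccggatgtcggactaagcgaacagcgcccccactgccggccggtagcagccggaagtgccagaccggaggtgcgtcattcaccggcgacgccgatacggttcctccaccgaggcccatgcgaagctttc
PPM1F-AS1, matched peak, chr22:21937987-21938236, plus strand: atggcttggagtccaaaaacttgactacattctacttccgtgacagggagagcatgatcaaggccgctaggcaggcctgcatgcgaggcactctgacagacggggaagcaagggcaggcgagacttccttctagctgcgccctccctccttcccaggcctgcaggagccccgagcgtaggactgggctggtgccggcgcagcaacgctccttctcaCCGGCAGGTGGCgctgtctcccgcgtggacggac
WNT1, control-only peak, chr12:48978072-48978321, plus strand: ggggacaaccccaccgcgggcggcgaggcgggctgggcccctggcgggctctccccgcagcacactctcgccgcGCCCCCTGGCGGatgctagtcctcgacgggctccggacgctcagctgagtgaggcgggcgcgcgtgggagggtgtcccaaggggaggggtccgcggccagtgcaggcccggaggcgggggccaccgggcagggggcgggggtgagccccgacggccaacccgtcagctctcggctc
LOC105376306, control-only peak, chr9:133030423-133030672, minus strand: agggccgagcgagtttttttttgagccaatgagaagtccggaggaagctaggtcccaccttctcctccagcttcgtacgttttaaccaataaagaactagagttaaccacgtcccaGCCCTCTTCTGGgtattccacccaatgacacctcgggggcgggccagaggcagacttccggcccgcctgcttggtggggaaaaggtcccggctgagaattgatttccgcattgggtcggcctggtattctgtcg

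The core of GLIPR1L1 had no mismatch and the other 6 had 1 each. In WNT1 and LOC105376306 the core was on the opposite strand to the gene, so its reverse complement is what stands in capitals. Percentiles below rank a peak within its own list, by total signal (coverage summed over the peak) unless highest signal (its tallest point) is named. The ICM-only peak at GLIPR1L1 was at the 63.7th percentile, that at ZC3H7A at 59.3 and that at SLC25A44 at 58.2. The matched peaks at TOMM6, a subunit of the mitochondrial import pore, and at PPM1F-AS1 were at 99.8 in the ICM list. The control-only peak at WNT1, a secreted signalling ligand, was at 65.7 in the control list, and that at LOC105376306 at 31.6.

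By overlap of 1 bp or more, most control peaks were also listed after ICM, while the ICM list held many more. Of the 4673 control peaks, 4413 (94.4%, 95% interval 93.7 to 95.1) overlapped an ICM peak and 260 (5.56%, 4.92 to 6.26) were control-only. Of the 6728 ICM peaks, 4387 (65.2%, 64.1 to 66.3) overlapped a control peak and 2341 (34.8%, 33.7 to 35.9) were ICM-only. These intervals are exact binomial ones, as are those of all shares here, and cover counting over peaks, not variation between cultures.

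The unmatched peaks lay low in the ranking of both lists. ICM-only peaks had a median percentile of 22.01, against 66.9 for matched ICM peaks, and 2107 of the 2341 stood below the median of the list. Of the 672 ICM peaks below the 10th percentile 84.8% were ICM-only, and the share was 23.3% between the 50th and 60th. Above the 90th percentile none of 673 ICM peaks lacked a control peak. Control-only peaks had a median percentile of 14.9, against 52.6 for matched control peaks, and none of the 935 control peaks above the 80th percentile lacked an ICM peak. The strongest CTCF peaks were thus listed in both conditions. The share without a match rose toward the lower end of each list, while single ICM-only peaks reached up to the 89.6th percentile.

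The lists also differ in length, which bears on these shares. When the ICM list was cut to its 4673 peaks of highest total signal, 808 ICM peaks (17.3%, 16.2 to 18.4) and 777 control peaks (16.6%, 15.6 to 17.7) were without a match. Of those 777 control peaks, 517 overlapped an ICM peak that had been cut away. Cut by highest signal, the shares were 22.3% and 21.7%. With equal lengths and matches that are nearly all one-to-one, the cut itself makes both shares nearly equal. The lowest total signal was 20161 in the ICM list and 14246 in the control list, and the number of reads behind either list is unknown.

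**Figure D1:**
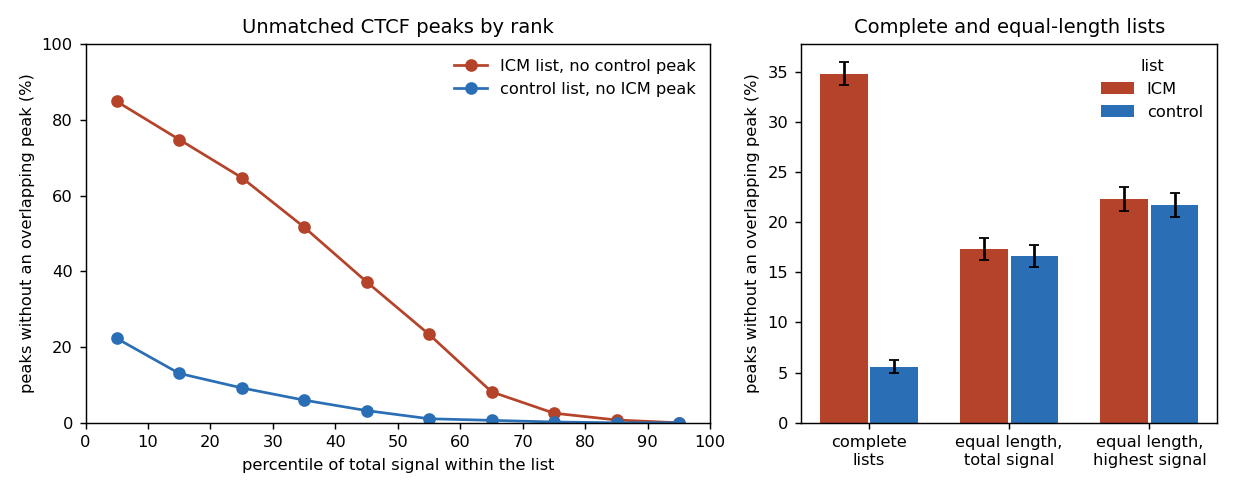
Left, the share of peaks without an overlapping peak in the other CTCF list (percent), in bins of 10 percentiles of total signal within the list, for the ICM list (red) and the control list (blue). Right, the same share over whole lists (bars, with exact 95% intervals) for the complete lists and for lists of 4673 peaks each. ICM falls from 84.8% in the lowest bin to 0 in the highest, and at equal length, where the cut makes the shares nearly equal, the intervals of ICM and control overlap.

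The highest-ranked ICM-only peaks lay at genes of varied function. The first, at the 89.6th percentile and 5761 bp wide, reached from GYS1, the muscle glycogen synthase, into FTL, the ferritin light chain. The second, at 88.4, covered CCN1, a matricellular protein that fibroblasts secrete, at a summit distance of 470 bp to the start of that gene. A peak inside PAMR1 was at 88.1 and one inside PXDC1 at 86.8. A peak at 84.1 touched RPL38, a ribosomal protein gene, and the 5′ end of TTYH2, to which its summit was 277 bp distant. The narrowest of these 5 spanned 3855 bp, and all ranked lower by highest signal than by total signal, for example TTYH2 at 13.4.

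The remaining 5 of the 10 stood between the 74.0th and 77.4th percentile. They lay at the predicted gene LOC124900844 beside the protocadherin gene PCDH7, at FBXL15, which encodes an F-box protein, 54770 bp from the 5′ end of EID3, 19338 bp from that of TEX35, and inside MYO10, a myosin of filopodia. Of the 10, 8 overlapped a peak of the senescent CTCF list, the exceptions being those at CCN1 and LOC124900844. All 10 overlapped an SMC1 peak of ICM-treated cells, and 8 an SMC1 peak of control cells. Over all ICM peaks, the shares were 81.3% for the senescent CTCF list, 72.6% for SMC1 of ICM-treated cells and 69.5% for SMC1 of control cells. These 10 peaks are wide and an overlap of 1 bp counted, so the summits need not coincide.

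The highest-ranked control-only peaks stood lower in their list than the ICM-only ones in theirs. The first was at the 75.9th percentile, 8796 bp from the 5′ end of ZG16B, and the second at the WNT1 promoter, 241 bp from the 5′ end. Peaks followed inside DLG3, a synaptic scaffold gene, at 62.9, inside CSF1, the macrophage colony-stimulating factor, at 61.5, inside ENTPD2, an ectonucleotidase, at 58.7 and inside SAPCD2 at 57.1. The other 4 lay 7577 bp from the 5′ end of TMEM119, 16718 bp from that of NFATC1, a calcium-regulated transcription factor, 119733 bp from that of TMEM45B, and inside IARS1, an isoleucyl-tRNA synthetase, between 49.8 and 54.5. Of these 10, 8 overlapped a senescent CTCF peak but only 4 an SMC1 peak of ICM-treated cells and 3 one of control cells. Over all control peaks these shares were 90.8%, 75.5% and 75.8%. The peaks at or near WNT1, CSF1, ENTPD2, SAPCD2, TMEM119 and TMEM45B overlapped none in either of these SMC1 lists.

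Under the overlap rule used here, ICM-only peaks were narrower than matched ones and less often at promoters, and both differences moved with the processing. The median width was 1812 bp for ICM-only and 2048 bp for matched ICM peaks, a difference of -236 bp (95% interval -280 to -190). It was -74 bp (-146 to 8.86) at equal length by total signal, where the interval reaches past 0, -87 bp with matching by summit windows and -111 bp with an overlap of 50% of both peaks. In the control list the medians were 1689.5 and 1801 bp, a difference of -112 bp (-179 to 18.8) that also reaches past 0. Promoter peaks are those whose summit was at most 1 kb away from the outermost 5′ end of a gene. They made up 782 ICM-only peaks (33.4%, 31.5 to 35.4) and 1698 matched ICM peaks (38.7%, 37.3 to 40.2), a difference of -5.30 points (-7.70 to -2.87). For control-only peaks the share was 26.5% (21.3 to 32.3), against 38.7% (37.2 to 40.1) of matched control peaks. Of the other ICM-only peaks, 805 (34.4%) had their summit inside a gene and 754 (32.2%) between genes. Both differences in promoter share turned positive when peaks were matched by 100 bp windows on their summits, to 2.58 points for ICM-only and 10.2 for control-only peaks. At equal length by highest signal they were -17.6 and 5.07 points.

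ICM-only promoter peaks were broader and lower than those between genes. Their median width was 1939 bp, against 1650 bp for ICM-only peaks between genes, at median percentiles of total signal of 21.8 and 22.1. By highest signal, however, promoter peaks stood at 15.7 and those between genes at 35.4. Matched ICM peaks were also wider at promoters, with medians of 2122 bp against 1921.5 bp between genes. Their percentiles of highest signal were 64.8 and 67.2, a smaller difference, and those of total signal 71.3 and 64.3. The gene nearest to an ICM-only promoter peak was protein-coding for 638 of the 782 (81.6%) and a long noncoding RNA for 118 (15.1%), compared with 78.1% and 17.8% at matched ICM peaks.

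The unmatched shares depended on the matching rule. With 100 bp windows on the summits 46.6% of ICM and 23.1% of control peaks were unmatched, and with an overlap of 50% of both peaks 39.6% and 13.0%. At the edge of the rule used here, the smallest overlap was 26 bp, between an ICM peak at chr17:50269339-50271922 and a control peak at chr17:50271897-50274222, near TMEM92. The next was 33 bp, near TNFAIP8L1. Just outside the rule, an ICM-only peak near UROD lay 79 bp from the closest control peak, and a control-only peak 887 bp from the 5′ end of INHBE lay 464 bp from the closest ICM peak. Near P2RX3 an ICM-only and a control-only peak were 155 bp apart. In all, 35 ICM-only peaks (1.495%) and 7 control-only peaks (2.69%) lay within 1 kb of the other list. The median gap was 94478 bp for ICM-only and 33815 bp for control-only peaks.

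Among the matches, 42 ICM peaks overlapped 2 control peaks, and 16 control peaks overlapped 2 ICM peaks. An overlap of 1 bp counted, so a peak need not cover both. Near TMEM92 and TNFAIP8L1, staggered peaks that met at their ends were counted under both kinds. An ICM peak of 7359 bp at VEGFA, the vascular growth factor, was of the first kind, as were those of 9805 bp at FIBP and 7943 bp at IRS1, an adaptor of insulin signalling. The widest control peak, of 12115 bp over COL1A1, the main collagen chain of fibroblasts, overlapped 2 ICM peaks. So did a control peak of 9029 bp over PDGFRA, a growth factor receptor of mesenchymal cells. The wide peaks at VEGFA, FIBP, COL1A1 and PDGFRA were above the 99th percentile in their list.

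The other matches formed 4318 one-to-one pairs, 92.4% of the control list. Their summits were a median of 17 bp apart, and 3552 pairs (82.3%) had them within 100 bp. The ICM peak was the wider in 2925 pairs (67.7%), with a median width ratio of 1.11 and quartiles of 0.952 and 1.34. Ranks were similar, with a Spearman correlation across pairs of 0.812 by total and 0.864 by highest signal. These pairs are not independent replicates, and each axis is 1 library.

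Peaks that ranked 25 or more percentile points apart are called shifted. Of the 4318 pairs, 886 (20.5%) stood 25 or more points higher in the ICM list and 77 (1.78%) as much lower. The median difference over all pairs was 8.56 points, with quartiles of 0.454 and 21.8. By construction, each low-ranked ICM-only peak adds to the percentile of every ICM peak above it. Ranked among the 4318 pairs alone, 323 were 25 or more points higher and 312 as much lower. Such ranking makes the differences sum to 0 by construction, and the 2 counts say nothing of a balance between directions. All of the 323 were among the 886, and 76 of the 77 downward pairs were among the 312. With lists of equal length the counts were 288 and 308. By highest signal in the complete lists they were 641 and 57, and 421 of the 886 and 22 of the 77 passed by both measures.

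A wider peak sums coverage over more bases, so a shift in total signal depends on width by construction. Across the 4318 pairs, the Spearman correlation of the shift with the width ratio was 0.297 by total and 0.0449 by highest signal. In the 886 upward pairs the median width was 2008.5 bp in the ICM list and 1572 bp in the control list, and 729 (82.3%) were wider after ICM. Among the 3355 pairs in between, 64.5% were wider, and among the 77 downward pairs 40.3%. Their promoter shares were 34.4% (31.3 to 37.7) for upward, 40.5% (38.8 to 42.2) for intermediate and 27.3% (17.7 to 38.6) for downward pairs.

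**Figure D2:**
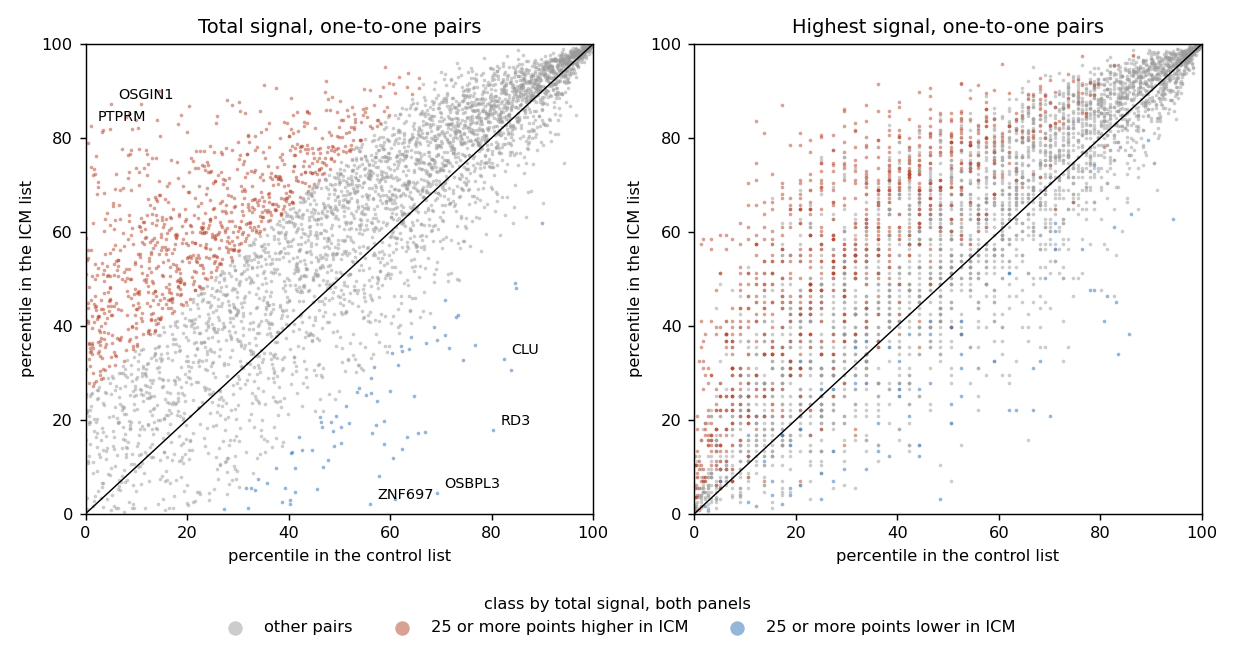
Each point is 1 of 4318 one-to-one pairs of CTCF peaks, with its percentile within the control list (x) and within the ICM list (y), by total signal (left) and highest signal (right). The line marks equal percentiles. Most points lie above the line in both panels, the 886 upward pairs (red) outnumber the 77 downward pairs (blue), and the points close on the line at the top-ranked end.

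The pair with the largest upward shift lay in OSGIN1, a gene induced by oxidative stress. Its percentile was 5.08 in control and 87.2 in ICM, a shift of 82.2 points, and its width 1995 bp in control and 6423 bp in ICM. The promoter peak of PTPRM, a receptor tyrosine phosphatase, followed with 1.04 in control and 82.5 in ICM. Next were GLIS2, a zinc-finger factor gene, with a shift of 78.3 points, and a peak 18089 bp from the 5′ end of RNASE12 with 78.2. The RNASE12 pair kept nearly the same width, 1874 bp in control and 1967 bp in ICM, and was 59.8 points higher by highest signal too.

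A peak 90136 bp from the 5′ end of GPAM, which starts glycerolipid synthesis, shifted by 78.0 points and widened from 1172 to 4514 bp. One inside SCHIP1 shifted by 77.1 points. The peak over GDF15, a stress-induced cytokine, went from 8.59 to 85.1 and from 2158 to 5716 bp. The promoter peak of CS, the citrate synthase, went from 7.95 to 84.4. One inside NOS2, the inducible nitric oxide synthase, shifted by 76.2 points, and one in the overlapping genes CEP72 and TPPP by 75.6 points, from 1401 to 5617 bp. By highest signal these 10 pairs shifted less, between 14.5 points at SCHIP1 and 59.8 at RNASE12. Among the pairs alone the 10 shifts were between 67.7 and 76.8 points.

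The largest downward shift was at OSBPL3, an oxysterol-binding protein gene, from 69.2 in control to 4.38 in ICM. The pair 23393 bp from the 5′ end of RD3 went from 80.3 to 17.8 and narrowed from 2824 to 1274 bp. A pair 12774 bp from that of CYP2R1, a vitamin D hydroxylase, went from 61.0 to 3.19, and the promoter peak of the zinc-finger gene ZNF697 from 56.1 to 2.05. SPINT1, a protease inhibitor gene, shifted by -53.2 points. A pair near LAPTM5 was at 57.7 in control and 7.96 in ICM.

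The promoter peak of C1S, a complement protease, went from 66.8 to 17.3, and that of CLU, the extracellular chaperone clusterin, from 82.4 to 32.9. The pair at MAPK12, a p38 kinase gene, narrowed from 3092 to 1113 bp and shifted by -48.8 points. The last, in SMARCD3, a subunit gene of the SWI/SNF remodeller, shifted by -48.6 points. By highest signal C1S, CLU and CYP2R1 shifted by -47.5, -49.5 and -45.4 points, nearly as far as by total signal. ZNF697, LAPTM5 and SMARCD3, by contrast, differed by at most 3.67 points in the highest signal.

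**Figure D3:**
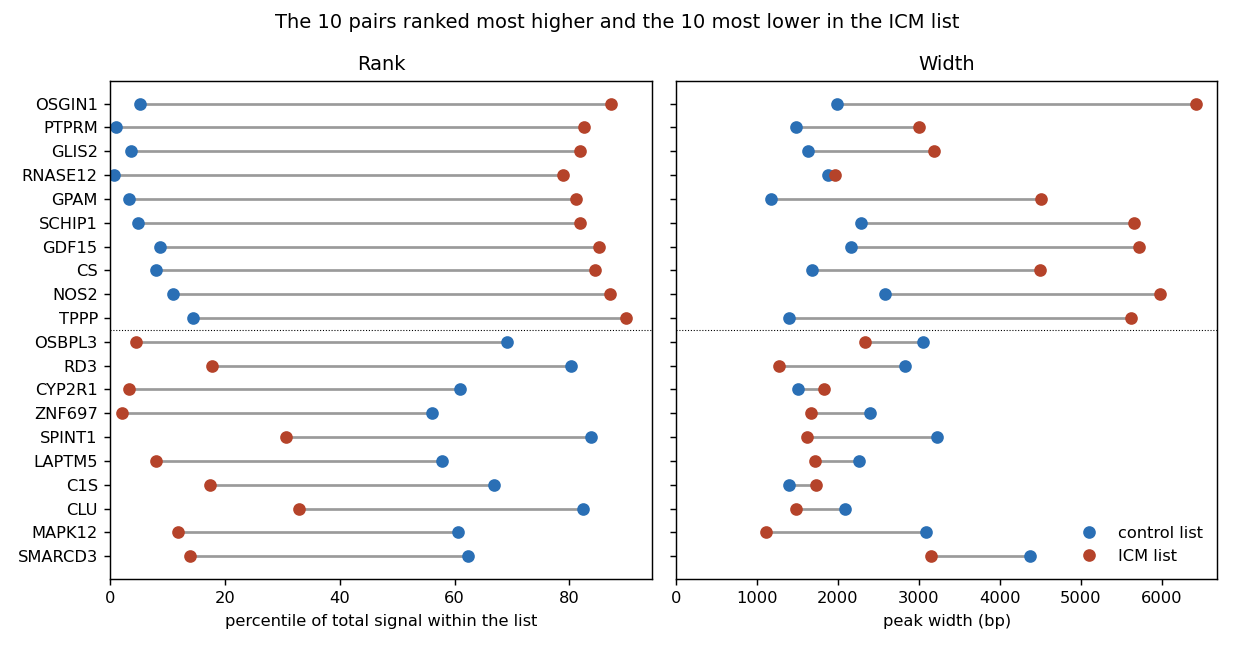
For the 10 pairs with the largest upward and the 10 with the largest downward shift, named by gene, the percentile of total signal within each list (left) and the peak width in bp (right), in control (blue) and ICM (red). All of the 10 upward pairs are wider in ICM, and 8 of the 10 downward pairs are narrower, the exceptions being CYP2R1 and C1S.

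The ICM-only peaks were set against lists that the matching did not use. Of the 2341, 1428 (61.0%, 59.0 to 63.0) overlapped a CTCF peak of senescent cells, against 92.1% (91.2 to 92.9) of matched ICM peaks. Of the control-only peaks, 186 (71.5%, 65.6 to 76.9) did so, so a position missing from 1 of the 2 lists was often present in the senescent one. The senescent list is longer, with 8577 peaks. Against its 4673 peaks of highest total signal, the shares were 28.9% (27.1 to 30.8) for ICM-only, 75.04% for matched ICM and 38.5% (32.5 to 44.7) for control-only peaks.

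Promoter position separated the ICM-only peaks in this respect, and also the matched ones. Of the 782 at promoters 36.1% (32.7 to 39.5) overlapped a senescent CTCF peak, compared with 68.7% (65.4 to 71.9) inside genes and 78.6% (75.5 to 81.5) between genes. Over all heights, matched ICM peaks showed a smaller gap, with 86.3% at promoters and 96.5% between genes. The order was the same at like heights. Below the 25th percentile of the ICM list by highest signal, 24.1% (20.5 to 28.0) of 535 ICM-only promoter peaks and 51.4% (47.2 to 55.4) of 592 other ICM-only peaks overlapped a senescent peak. Between the 25th and 50th the shares were 57.4% (49.9 to 64.6) of 183 and 85.0% (81.9 to 87.7) of 606. For matched ICM peaks below the 25th they were 51.8% (46.0 to 57.5) of 305 at promoters and 79.7% (74.8 to 84.1) of 311 elsewhere. The gap there was not smaller than that of ICM-only peaks. Between the 25th and 50th matched peaks had 82.7% of 313 and 93.8% of 499, a smaller gap.

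For cohesin the order over all heights was the opposite. An SMC1 peak of ICM-treated cells overlapped 76.0% (72.8 to 78.9) of ICM-only promoter peaks, 59.4% (55.9 to 62.8) of those inside genes and 54.9% (51.3 to 58.5) of those between genes. Matched ICM promoter peaks were at 80.5%. At like heights the order held for ICM-only peaks below the 25th percentile of highest signal, with 80.9% (77.3 to 84.2) at promoters and 58.4% (54.4 to 62.4) elsewhere, and between the 25th and 50th, with 66.7% (59.3 to 73.4) and 52.0% (47.9 to 56.0). It was absent between the 50th and 75th, with 62.1% (48.4 to 74.5) of 58 and 63.0% (57.5 to 68.2) of 327. Above the 75th only 6 ICM-only peaks were at promoters, 3 of them with SMC1, and 34 elsewhere, of which 73.5% (55.6 to 87.1) had it. The SMC1 list of control cells held a similar part of the ICM-only promoter peaks, 79.03% (76.0 to 81.8), and less of those between genes, 39.5% (36.0 to 43.1). After the SMC1 list of ICM-treated cells was cut to the 14883 peaks of the control one, the share between genes was 48.5% (44.9 to 52.2) and that at promoters 71.4% (68.0 to 74.5).

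Over all positions, 63.5% (61.5 to 65.4) of ICM-only peaks overlapped SMC1 of ICM-treated cells and 55.2% (53.2 to 57.3) SMC1 of control cells, both libraries with the p number 16. The first of these shares was 37.7% with matching by summit windows and 25.4% with an overlap of 50% of both peaks. For matched ICM peaks the shares were 77.4% and 77.2%. Control-only peaks went the other way, with 48.1% (41.9 to 54.3) in ICM-treated and 56.9% (50.7 to 63.0) in control cells. Of the ICM-only peaks, 323 (13.8%) had SMC1 only in the list of ICM-treated cells and 130 (5.55%) only in that of control cells. With SMC1 lists of equal length these were 221 and 172, and the shares were 57.3% and 55.2%. At that length matched ICM peaks had shares of 73.0% and 77.2%, and matched control peaks 72.6% and 76.9%. For control-only peaks at equal length, 104 of 260 had SMC1 of ICM-treated and 148 SMC1 of control cells.

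**Figure D4:**
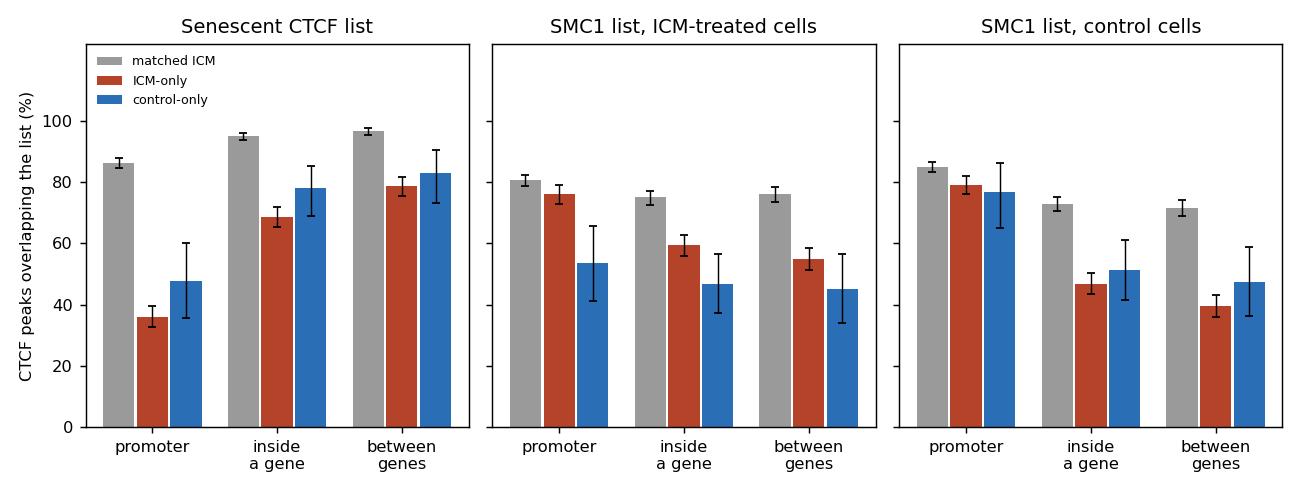
Share of CTCF peaks (percent, with exact 95% intervals) that overlap a peak of the senescent CTCF list (left), the SMC1 list of ICM-treated cells (middle) and the SMC1 list of control cells (right), for matched ICM (grey), ICM-only (red) and control-only peaks (blue), by position. ICM-only promoter peaks are at 36.1% in the senescent CTCF list and at 76.0% in the SMC1 list of ICM-treated cells.

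By gene, 866 of 19626 protein-coding genes (4.41%) had a promoter peak in the ICM list alone, 107 (0.545%) in the control list alone and 1617 (8.24%) in both. A matched peak whose summit lay elsewhere accounted for 38 of the 866 and 45 of the 107. In lists of equal length 304 genes had a promoter peak in ICM alone and 279 in control alone. The gene lists described next hold 282 genes, of which 20 had a promoter peak in ICM alone, 4 in control alone and 24 in both. These counts are to be read against the shares of all genes, and no list is set apart from them by a test. Where a gene has percentiles in both lists, the baseline is that of the one-to-one pairs. These stood a median of 8.56 points higher in ICM, with quartiles of 0.454 and 21.8. Low-ranked ICM-only peaks raise the ICM percentiles by construction, so a higher percentile in ICM alone is no gain of signal.

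Of 20 genes for CTCF, cohesin and their partners, 6 had a promoter peak in both lists, 2 in ICM alone and 12 in neither, with the cohesin subunit genes SMC1A, RAD21 and STAG2 among the 12. The promoter of CTCF itself was at the 95.1st percentile in control and 95.8 in ICM, and that of STAG1, a cohesin subunit, at 94.6 and 93.4. PDS5A and ESCO1, which regulate cohesin, were at 93.3 and 86.4 in control and at 96.5 and 92.2 in ICM. NIPBL, the cohesin loader, was at 29.3 and 57.2. The 2 genes with ICM-only peaks were SMC3, a core subunit of the cohesin ring, at 9.63, and PATZ1, a zinc-finger protein, at 21.8.

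The HMG list includes the genes of the proteins ICM binds. Of 12 genes, HMGB2 and HMGN4 had a promoter peak in ICM alone, at the low percentiles of 2.78 and 28.3, and TOX4 in both, at 89.3 in control and 84.6 in ICM. The other 9, HMGB1 among them, had none in either list.

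Of 28 lamin and heterochromatin genes, 6 (21.4%) had a promoter peak in ICM alone, 2 in both and none in control alone. The 6 were LMNB1, which encodes lamin B1, EMD, which encodes the inner nuclear membrane protein emerin, BANF1, whose product links chromatin and lamina, the HP1 genes CBX1 and CBX3, and TRIM28, a corepressor. All were low in the list, between 7.81 at CBX1 and 35.9 at TRIM28. At LMNB1 a control peak also covered the 5′ end, with its summit beyond 1 kb. The third HP1 gene, CBX5, was in both lists, at 66.9 in control and 73.1 in ICM, and so was DNMT3A, a DNA methyltransferase, at 8.63 and 36.8.

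Among 33 cell-cycle arrest genes, 5 had a promoter peak in both lists, 1 in ICM alone and 1 in control alone. CDKN2B, which encodes the inhibitor p15, was at 90.6 in control and 96.3 in ICM, and CDKN2D, of the same family, at 54.3 and 75.6. MDM2, a ubiquitin ligase, had an ICM-only peak at 43.9. PPM1D, a protein phosphatase, was at 78.97 in control, and an ICM peak covered its 5′ end with its summit elsewhere.

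Of 48 secretory phenotype genes, 4 had a promoter peak in both lists and none in ICM alone. IL6, a central cytokine of senescent cells, was at 53.4 in control and 70.1 in ICM. INHBA, an activin subunit, was at 30.7 and 62.3, and TGFB1 at 47.4 and 71.0. Matched peaks as a whole also stood higher in the ICM list, with medians of 52.6 in control and 66.9 in ICM. GDF15 counted as control alone, since the summit of the wide ICM peak described above lay 2469 bp from its 5′ end.

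Of 33 extracellular matrix genes of fibroblasts, 4 (12.1%) had a promoter peak in ICM alone and 2 in both. COL1A2, the partner chain of COL1A1, had an ICM-only peak at 46.2, 679 bp from the 5′ end. ACTA2, the smooth muscle actin of activated fibroblasts, had one at 20.3, and CCN1 the one at 88.4. At COL1A1 the ICM peak at 98.6 was matched, and a control peak covered the 5′ end too. CCN2, a relative of CCN1, was at 35.2 in control and 91.2 in ICM, a shift of 55.9 points, with widths of 2086 and 4327 bp. THBS1, another matricellular gene, was at 90.6 and 97.5.

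Of 39 HOX genes, only HOXA5 and HOXB5 had promoter peaks, in both lists, at 56.1 and 61.3 in control and 82.6 and 76.0 in ICM. None of 16 imprinted genes had one in either list. Under equal length, 5 of the 20 genes with a promoter peak in ICM alone remained, namely MDM2, TRIM28, COL1A1, COL1A2 and CCN1. Of the 24 genes with a promoter peak in only 1 list, 18 had a promoter window in the sequence table, and none of the 18 held the CTCF core in those letters, SMC3, LMNB1, MDM2, GDF15 and the 7 protocadherin genes described next included. The core was in 4.97% of all windows and in 15.1% of those with an ICM-only summit, so none among 18 says little. Summits up to 1 kb from the 5′ end can also lie outside the window searched.

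**Figure D5:**
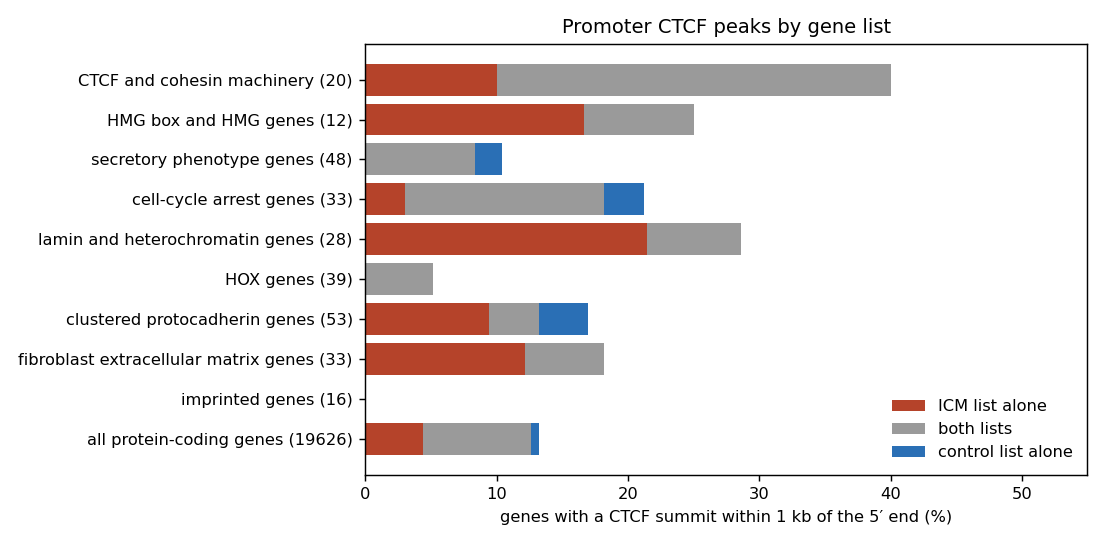
Share of the genes of each list (percent, with the number of genes in brackets) with a CTCF summit within 1 kb of the 5′ end in the ICM list alone (red), in both (grey) and in the control list alone (blue). The lowest bar gives all 19626 protein-coding genes, with 4.41%, 8.24% and 0.545%.

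The clustered protocadherin genes offered a row of similar promoters, among which neurons are known to choose with the help of CTCF. Of 53 such genes, 5 had a promoter peak in ICM alone, 2 in control alone and 2 in both, all 9 in the gamma cluster (chr5:141330514-141512975). There the ICM list held 8 peaks and the control list 5, of which 3 pairs matched. From the 5′ side, the control list had peaks at PCDHGA2, 29 bp from the 5′ end and at the 47.0th percentile, and at PCDHGB1, at 11.6, where the ICM list had none.

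Further along, the ICM list had its own peaks at PCDHGB3, PCDHGA7, PCDHGA10, PCDHGB7 and PCDHGC3, at percentiles of 3.81, 16.3, 7.71, 15.9 and 17.01. Both lists held PCDHGB4, at 24.9 in control and 37.7 in ICM, PCDHGA11, at 26.4 and 35.2, and a peak at the shared 3′ end, at 31.0 and 60.0. Different promoters of the cluster were thus listed in the 2 conditions. Of the 9 promoters, 7 had no peak of either SMC1 list used above, PCDHGB7 had one of control cells and PCDHGC3 of both. Reads of such similar sequences can be hard to place, and none of the 5 ICM-only peaks here ranked high enough to enter the list of equal length.

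The share of ICM-only peaks differed little between most chromosomes. It was lowest on chromosome 12, with 28.8% (24.0 to 33.9) of 337 peaks, and highest on chromosome 18, with 54.7% (40.4 to 68.4) of 53 peaks. Chromosome 4 had 49.1% (41.5 to 56.8) of 175 and chromosome 13 43.0% (33.1 to 53.3) of 100. For control-only peaks the share was between 1.97% on chromosome 16 and 14.3% on chromosome 18, where it rested on 4 of 28 peaks. Chromosome X, with 35.5% and 10.4%, was within this range.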

How the data were processed

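The deposited CTCF lists were made by the authors from CUT&Tag of lightly fixed cells. Per the labels and the study's methods, reads were aligned to GRCh38 with Bowtie2 2.3.4.1, duplicates handled with Picard 2.20.7, coverage made with deepTools and calibrated with E. coli reads, and peaks called in each library on its own with SEACR 1.3 (stringent, top 1% of regions). The methods also describe a CTCF motif filter. Each deposited CTCF list is a little longer than its filtered set, so the files are not exactly those sets, and how far the filter was applied is not given in the sources used here. Promoter windows on chromosome 8 were not used here. The deposited values are signal (coverage): the total over the peak and its highest value, with the region where it is reached. All are whole numbers in both lists, no scale common to them was found, and depth is unknown, so only ranks within a list were compared. SEACR's threshold on regions bears on the length of a list, and list length on every share.

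Peaks were matched by overlap of at least 1 bp, and the mitochondrial peak of each list was left out. The summit is the midpoint of the region of highest signal. Gene positions are from RefSeq GRCh38.p14. The strand came from the RefSeq promoter table by gene ID, else from GENCODE by symbol, and was found for 47053 of 59094 genes and 19626 of 19970 protein-coding ones. Genes without a strand had no promoter here. Promoter sequences were RefSeq's. Shares have exact (Clopper-Pearson) 95% intervals, and differences join the intervals of both terms. Peaks were named by rule: the 10 highest-ranked ICM-only and control-only peaks by total signal, the 10 pairs each with the largest upward and downward shift, and every gene of the 9 lists with a promoter peak in 1 of the 2 lists. Each peak took the protein-coding gene over its summit, else one it overlapped, else that of the nearest 5′ end. Members and lists were chosen with earlier results of these data known. Genes named beyond the rule were chosen after their values were seen. Matching was tested on simulated lists. Alternatives were other matching rules, equal-length lists, ranks by highest signal or among pairs, other shift and promoter limits, and chromosomes 1 to 22. Python 3.11.15, pandas 2.3.3 and scipy 1.17.1 were used. No test was run, as each group is 1 library.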

Additional observations from a re-analysis of the deposited data

How the results depend on the processing

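No paired analysis was possible because no result comes from a test and each group is 1 library. Matching by 100 bp summit windows gave 46.6% of ICM and 23.1% of control peaks without a match, promoter differences of 2.58 (ICM-only) and 10.2 points (control-only), both reversed, a percentile difference of -36.8, a width difference of -87 bp, and 48.6% and 37.7% of ICM-only peaks with a senescent CTCF and an SMC1 peak. An overlap of 50% of both peaks gave 39.6% and 13.0%, -41.0 percentile points, -111 bp, 42.9% and 25.4%. Lists of equal length by total signal gave 17.3% and 16.6%, -40.5 points, -74 bp, 36.4% with a senescent peak and 304 genes. By highest signal they gave 22.3% and 21.7%, promoter differences of -17.6 points (ICM-only) and 5.07 points (control-only, reversed), and 212 genes. Percentiles by highest signal made the rank difference -37.8 points, and a 500 bp promoter limit made the ICM-only promoter difference -2.66 points. Counts of pairs higher and lower in ICM were 323 and 312 when ranked among pairs, and 312 and 16 with a limit of 40 points. In alternatives chosen after seeing the data, equal-length lists gave 288 and 308 pairs, and the SMC1 list of control cells gave 55.2%. In the other 23 of 57 comparisons the value stayed within the main interval or, for counts, within 1.5 times. Apart from the shortening of lists, which follows from dropping low-ranked peaks, the cause of these moves was not tested. Depth is unknown, so a peak absent from a list may lie below its threshold.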
